A study of Rattus norvegicus with 4 samples.

Results

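Bile acid synthesis enzymes and the FXR-SHP pair of regulators were followed in rat liver after ligation of the common bile duct. The members are all probes of a cDNA array whose single gene symbol was Cyp7a1, Cyp8b1, Cyp27a1, Nr0b2 or Nr1h4, which gave 9 of the 1936 probes: 2 each for the first 4 genes and 1 for Nr1h4. Both groups were male Sprague-Dawley rats of 250 to 300 g with access to food and water. In the ligation group the common bile duct was tied, and in the sham group it was exposed but not tied. Right lateral liver lobes were taken 12 h later, and RNA of the 3 animals per group was pooled, and its poly(A) fraction was labelled with Cy3 or Cy5. Each of the 4 arrays carried both mixtures, with the ligation RNA in Cy5 on arrays 1 and 3 and in Cy3 on arrays 2 and 4. Nothing in the labels shows separate pools behind the arrays, so p-values measure the spread between arrays and not between animals.

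The liver makes bile acids from cholesterol. The classical pathway starts with Cyp7a1, the cholesterol 7-alpha-hydroxylase that limits its rate, and Cyp8b1, the sterol 12-alpha-hydroxylase, sets the share of cholic acid. The alternative pathway starts with Cyp27a1, the mitochondrial sterol 27-hydroxylase, which also oxidises the side chain of classical intermediates. Nr1h4 encodes FXR, the nuclear receptor that bile acids activate, and Nr0b2 encodes SHP, an orphan receptor that FXR induces and that represses transcription of Cyp7a1 and Cyp8b1.

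The RefSeq promoter table (build GRCr8) held 3 of the 5 member genes, and the 250 bases before each start are shown because these genes include the lowest member (Cyp8b1), the most even one (Cyp27a1) and the highest one (Nr0b2). Capitals mark matches to AGGTCA, the element that nuclear receptors bind, to TATAAA or to CCAAT, on either strand. The sequences run 5′ to 3′ on the strand of the gene.
Nr0b2, chr5:151062910-151063159, plus strand: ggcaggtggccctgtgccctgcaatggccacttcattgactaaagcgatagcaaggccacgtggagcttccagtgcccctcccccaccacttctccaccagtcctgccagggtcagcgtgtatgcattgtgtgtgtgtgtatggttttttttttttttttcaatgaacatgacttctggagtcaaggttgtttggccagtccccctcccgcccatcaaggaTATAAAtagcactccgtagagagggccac
Cyp8b1, chr8:130457593-130457842, minus strand: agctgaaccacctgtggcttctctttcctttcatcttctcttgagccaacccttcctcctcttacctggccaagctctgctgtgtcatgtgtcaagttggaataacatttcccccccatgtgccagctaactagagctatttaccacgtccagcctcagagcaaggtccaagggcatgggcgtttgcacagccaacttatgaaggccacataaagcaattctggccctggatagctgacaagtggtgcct
Cyp27a1, chr9:83713282-83713531, plus strand: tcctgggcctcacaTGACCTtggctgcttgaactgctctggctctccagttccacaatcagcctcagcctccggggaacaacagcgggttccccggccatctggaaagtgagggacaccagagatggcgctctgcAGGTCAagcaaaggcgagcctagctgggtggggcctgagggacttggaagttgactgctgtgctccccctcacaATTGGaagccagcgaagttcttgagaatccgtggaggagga

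The Cyp27a1 window held AGGTCA at 115 to 110 bases before the start and its reverse complement TGACCT at 236 to 231, and a CCAAT box on the other strand at 41 to 37. The Nr0b2 window held TATAAA at 29 to 24 bases before the start, and the Cyp8b1 window held none of these motifs. No window held the inverted repeat of AGGTCA with 1 base between its copies (IR1), allowing up to 2 mismatches. FXR with its partner RXR binds this arrangement. Sequence further from the start was not searched, so these genes may hold IR1 outside the windows. Of 33469 rat promoters of the same length, 14.1% held AGGTCA, 12.9% TATAAA, 34% CCAAT and 1.24% IR1. The matches found in these windows do not overlap each other. As a motif, IR1 is built from AGGTCA, so its share is not independent of that of AGGTCA.

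Values are log2 ratios as deposited, taken as ligation over sham throughout. This direction is likely from the order of the channels in the labels but is not stated, and neither is the base of the logarithm. The medians of the 4 arrays were -1.26, 0.43, -0.96 and 0.26. Turned to Cy5 over Cy3 by the labelled dyes they were -1.26, -0.43, -0.96 and -0.26, below 0 on each array. Over all probes, arrays of equal dye orientation correlated at Pearson r = 0.93 and 0.94, and arrays of opposite orientation at -0.45, -0.36, -0.35 and -0.28. The members' directions are therefore also given for the other reading, Cy5 over Cy3, and directions of other genes hold for the first reading only. In the main analysis each array was centred on its median. A ligation term and a probe-specific dye term were then fitted with limma to the 1648 probes outside control positions, and a probe was called at Benjamini-Hochberg adjusted p under 0.05. The dye term is the offset of the arrays with the ligation RNA in Cy5 from the mean of both dye orientations. The arrays with it in Cy3 lie equally far on the other side of that mean. The term is positive where a probe is higher with the ligation RNA in Cy5.

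Of the 9 member probes, 6 were lower in the ligated pool, 2 were higher and 1 was not called. Over all probes tested, 16.1% were called lower and 11.8% higher, together 27.9% (265 lower and 194 higher). Centred on the probes with the smallest dye term before centring, a setting chosen after seeing the data, that split was 191 lower and 212 higher. Without centring it was 1330 lower and 31 higher, and read as Cy5 over Cy3 it was 556 lower and 790 higher. With probes averaged per gene, Cyp7a1, Cyp8b1, Cyp27a1 and Nr1h4 were lower and Nr0b2 was higher, against 16.6% lower and 12% higher of 1174 features, together 28.6%. Bulk liver RNA was measured, so fewer cells of a type and less RNA per cell cannot be told apart. A ratio gives no level, so the tissue could not be checked by the levels of hepatocyte transcripts. Of the 14 listed hepatocyte markers 5 were measured. Ttr, Tf, Serpina1 (probes at 0.38 and 0.032, the latter not called) and Apoa1 were higher (per-gene fit, 0.20 to 0.38). Pck1 was at -0.22 and not called. Without centring these 5 lay between -0.60 and -0.0039.

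**Figure D1:**
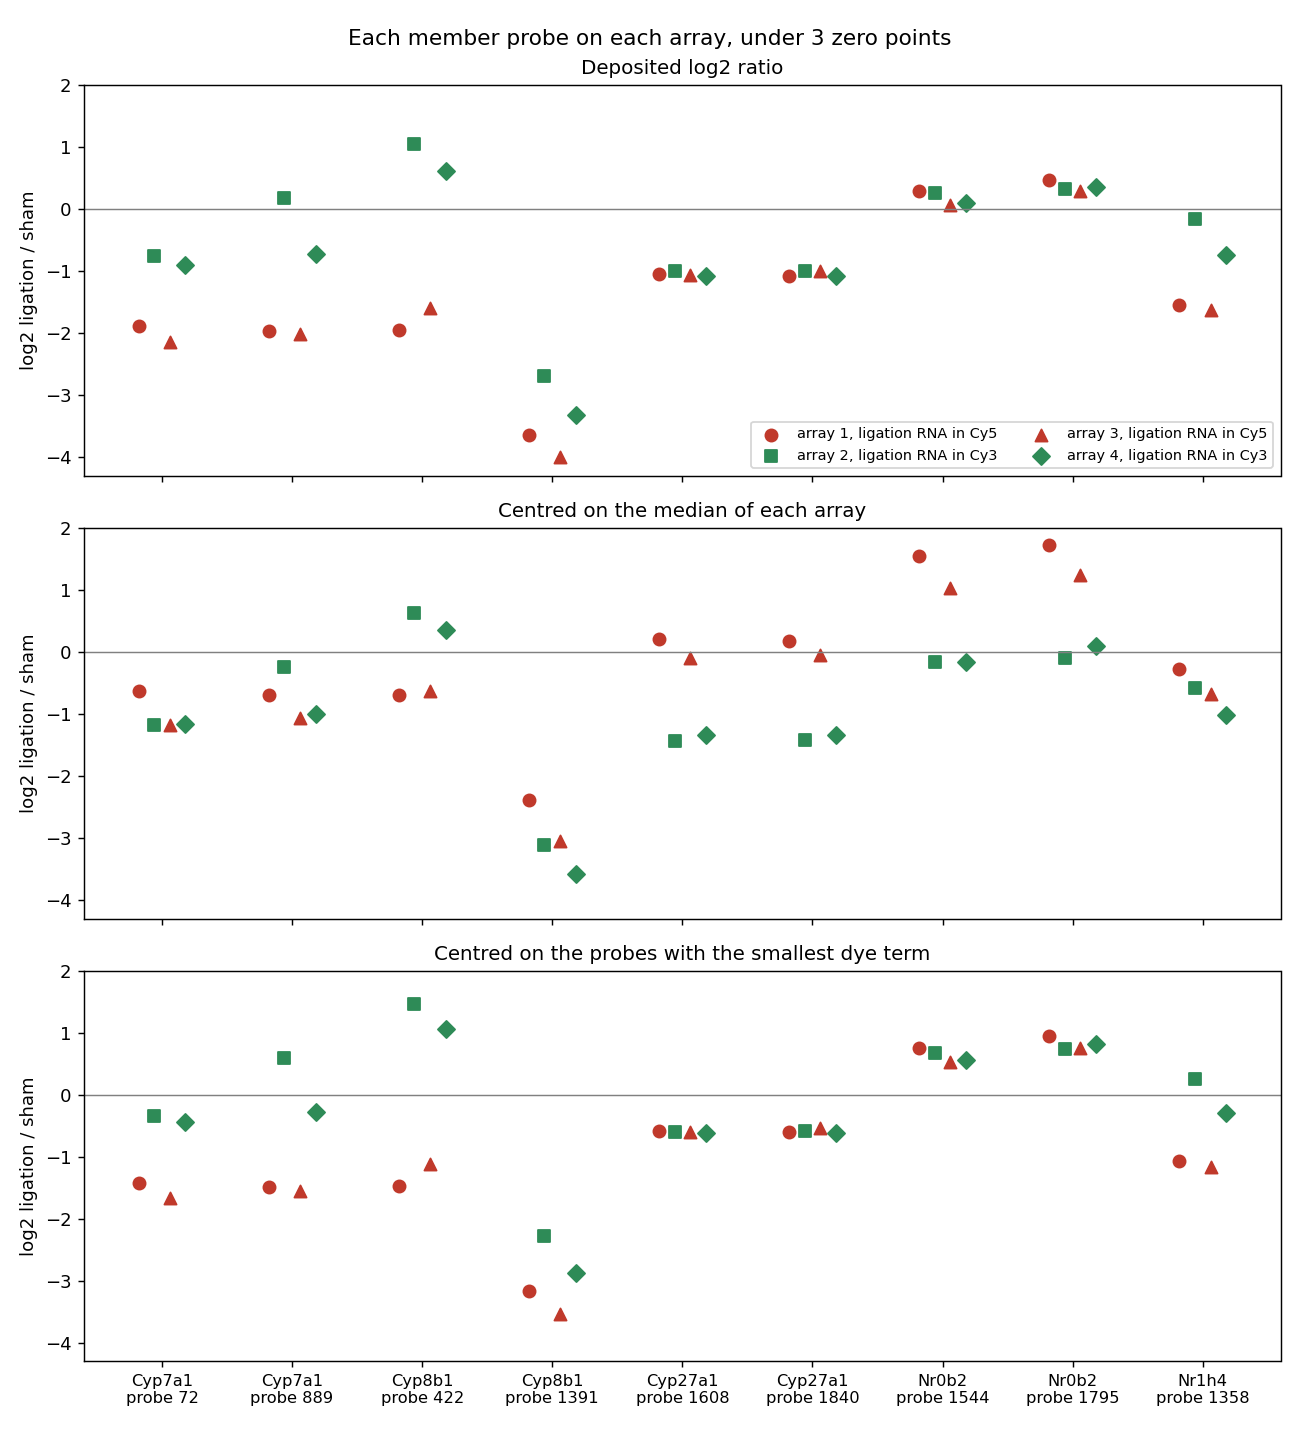
Log2 ligation over sham of the 9 member probes on each of the 4 arrays, as deposited (top), centred on the median of each array (middle) and centred on the quartile of probes with the smallest absolute dye term (bottom). Red symbols have the ligation RNA in Cy5 and green symbols in Cy3. As deposited, both Cyp27a1 probes lay between -1.08 and -0.99 and both Nr0b2 probes between 0.07 and 0.47, while the Cyp7a1, Cyp8b1 and Nr1h4 probes were lower on both Cy5 arrays than on both Cy3 arrays.

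Cyp8b1 was measured by probes with different clone accessions, and these did not give the same answer. On probe 1391 the deposited ratios were -3.64, -2.70, -4.01 and -3.33 on arrays 1 to 4, and -2.38, -3.12, -3.05 and -3.59 after centring. It was low on all 4 arrays under either scale. Its ligation term of -3.04 ± 0.11 (SE, 4 arrays; limma adjusted p = 1.23e-10), 8.21-fold lower, was the lowest of the 1648 probes. On probe 422 the deposited ratios were -1.95, 1.05, -1.59 and 0.61, and -0.69, 0.62, -0.63 and 0.34 after centring. This probe was below 0 on the Cy5 arrays and above 0 on the Cy3 arrays, and its ligation term was -0.089 ± 0.08 (limma adjusted p = 0.537). Without centring this probe was at -0.47 and called lower (limma adjusted p = 0.00423).

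Within each array, probe 1391 was below probe 422 by -1.69, -3.74, -2.42 and -3.93 on the log2 scale, on average -2.95 ± 1.07 (SD, n = 4). The gap was present in both dye orientations, at -2.06 with the ligation RNA in Cy5 and -3.84 in Cy3. Among the 340 genes with more than 1 probe, this was the widest spread between probes. Read as Cy5 over Cy3 the spread would be 0.89 and rank 71 from the widest. The median spread was 0.13, and 0.098 among the 261 genes with exactly 2 probes. The gene average of Cyp8b1, -1.56 ± 0.09, lies near neither probe and is not used further as its level of change.

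The probes of Cyp8b1 also differed in their dye term before centring, -0.41 for probe 1391 and -1.30 for probe 422. Over all tested probes the median dye term was -0.58, and over the 288 spots at control positions it was -1.25. Quartile 1 of the tested probes, with the most negative dye terms (-1.61 to -1.07), holds probe 422, and of its 412 probes 0.243% were called lower and 0.728% higher. The shares were 8.50% and 8.50% in quartile 2, 22.6% and 18.4% in quartile 3, and 33.0% and 19.4% in quartile 4, whose dye terms lie nearest 0. In 72 genes, at least 1 probe lay in quartile 1 and at least 1 in quartile 3 or 4, and in 67 of them the quartile 1 value was the smaller in size. These values are averages over the probes of a gene in quartile 1, and over those in quartile 3 or 4. Their median size was 0.029 in quartile 1 and 0.22 in quartile 3 or 4. On these averages, Cyp8b1, with probe 1391 alone, was the only gene of the 72 beyond 1 on the log2 scale in quartile 3 or 4. Single probes of genes with more than 1 probe there may lie further from 0 than the average. What gives a probe a large dye term was not tested.

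**Figure D2:**
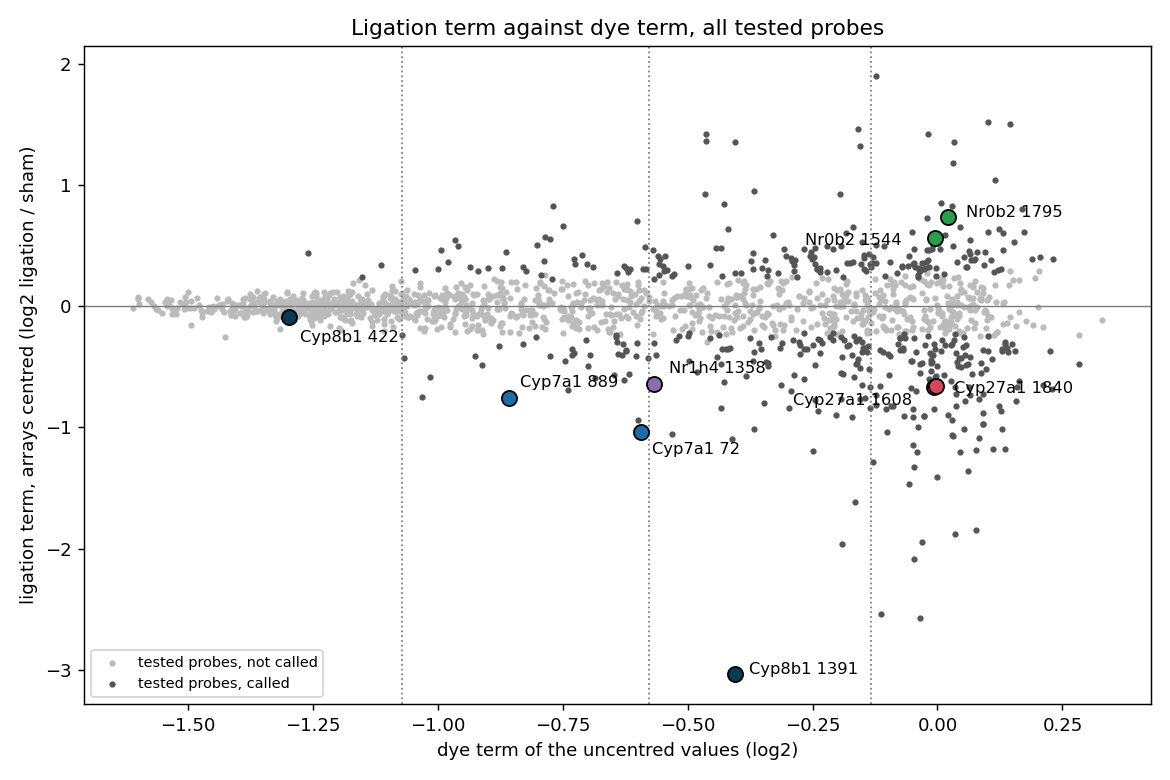
Ligation term after centring (vertical axis, log2) against the dye term before centring (horizontal axis, log2) for the 1648 tested probes, with the 9 member probes marked by gene and probe number and dotted lines at the quartile limits of the dye term. Dark grey points passed adjusted p under 0.05. Cyp8b1 probe 422 lies at a dye term of -1.30 among probes near 0 on the vertical axis, and the Cyp27a1 and Nr0b2 probes lie at dye terms between -0.0067 and 0.021.

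Cyp7a1 was lower on both of its probes, which carry the same clone accession in the platform table and were printed in different blocks. On probe 72 the deposited ratios were -1.89, -0.76, -2.14 and -0.90, and the centred ones -0.64, -1.18, -1.18 and -1.16. All 4 centred values were below 0, with array 1 the least low. The ligation term was -1.04 ± 0.09 (SE, 4 arrays; limma adjusted p = 1.26e-06), 2.06-fold lower. On probe 889 the deposited ratios were -1.96, 0.18, -2.02 and -0.73, and the centred ones -0.70, -0.25, -1.07 and -0.99. Again all 4 centred values were below 0, with array 2 the least low, and the term was -0.75 ± 0.11 (limma adjusted p = 0.000126), 1.69-fold lower. On the zero point of the probes with the smallest dye term, chosen after seeing the data, array 2 of probe 889 lay above 0 at 0.59. Its other arrays lay at -1.49, -1.56 and -0.27, and probe 72 at -1.42, -0.34, -1.67 and -0.44.

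The repeat prints of the Cyp7a1 clone thus differed by 0.29 in their ligation terms. For the 21 clone accessions present on 2 probes the median difference was 0.083 and the largest was 1.28, and 2 accessions differed by more than Cyp7a1 did. The dye terms of its probes before centring, -0.59 and -0.86, both lay in quartile 2. The gene average of Cyp7a1 was -0.90 ± 0.09 and ranked 14 from the lowest of 958 named genes. Read as Cy5 over Cy3 and centred, it would be at -0.00036 and rank 413.

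Cyp27a1, the enzyme that opens the alternative pathway, gave the most even values of the members. Its probes have different clone accessions. The deposited ratios of probe 1608 were -1.05, -1.01, -1.06 and -1.08, and those of probe 1840 were -1.08, -0.99, -1.01 and -1.08. These values spanned 0.070 and 0.085, and by SD over the arrays (0.030 and 0.045) the probes ranked 10 and 30 from the most even of the 1648. Their dye terms before centring were -0.0067 and -0.0038.

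Centring on the array median spread the Cyp27a1 values apart, because the median itself swung with the dye. On probe 1608 they became 0.21, -1.43, -0.10 and -1.34, and on probe 1840 0.18, -1.42, -0.051 and -1.34. After centring the Cy3 arrays were both low and the Cy5 arrays lay near 0. The ligation terms, which average over both orientations, were -0.67 ± 0.08 (SE, 4 arrays; limma adjusted p = 2.95e-05) and -0.66 ± 0.08 (limma adjusted p = 2.61e-05), about 1.59-fold and 1.58-fold lower. The probes differed by 0.011.

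A zero point taken from the quartile of probes with the smallest absolute dye term, chosen after seeing the data, gave -0.58, -0.59, -0.59 and -0.62 for probe 1608 on arrays 1 to 4 and -0.61, -0.58, -0.54 and -0.61 for probe 1840. All 8 values were below 0 on this scale. In quartile 4, which holds all Cyp27a1 and Nr0b2 probes, the median deposited ratio was -0.44, -0.45, -0.45 and -0.48 on arrays 1 to 4. In quartile 1 it was -1.78, 1.00, -1.54 and 0.78.

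The classical and alternative enzymes were compared as differences within each array, which do not depend on where the array's zero lies. Cyp8b1 probe 1391 was below the mean of the Cyp27a1 probes on every array, by -2.58, -1.70, -2.97 and -2.25, on average -2.37 ± 0.54 (SD, n = 4), 5.19-fold. Cyp8b1 probe 422 was not: it was below Cyp27a1 on the Cy5 arrays (-0.88 and -0.56) and above it on the Cy3 arrays (2.05 and 1.68). Cyp7a1 showed the same split by dye. Probe 72 differed from Cyp27a1 by -0.83, 0.24, -1.11 and 0.18 and probe 889 by -0.90, 1.18, -0.99 and 0.34, on average -0.38 ± 0.69 and -0.092 ± 1.04 (SD, n = 4).

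An exact two-sided sign-flip permutation test over the 4 arrays cannot give a p below 0.125. This test and the SDs of the differences take no dye term, so they count the swing between dye orientations as spread. For Cyp7a1 probe 72 the mean difference was -0.97 on the Cy5 arrays and 0.21 on the Cy3 arrays. A large p here therefore does not show that the genes changed alike. This exact test gave p = 0.125 for Cyp8b1 probe 1391 against Cyp27a1, p = 0.5 for Cyp8b1 probe 422 and for Cyp7a1 probe 72, and p = 1 for Cyp7a1 probe 889. Adjusted over the 7 differences computed, these were 0.219, 0.583, 0.583 and 1. In this reading 1 of the 4 classical probes lay below Cyp27a1 on each array. Read as Cy5 over Cy3, the values of arrays 2 and 4 turn sign. Cyp8b1 probe 1391 would then differ from Cyp27a1 by -2.58, 1.70, -2.97 and 2.25, on average -0.40. The other 3 classical probes would lie below Cyp27a1 on every array, on average by -1.29 for Cyp8b1 probe 422, -0.59 for Cyp7a1 probe 72 and -0.85 for Cyp7a1 probe 889. Which of the classical probes lay below Cyp27a1 throughout thus depends on the reading.

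**Figure D3:**
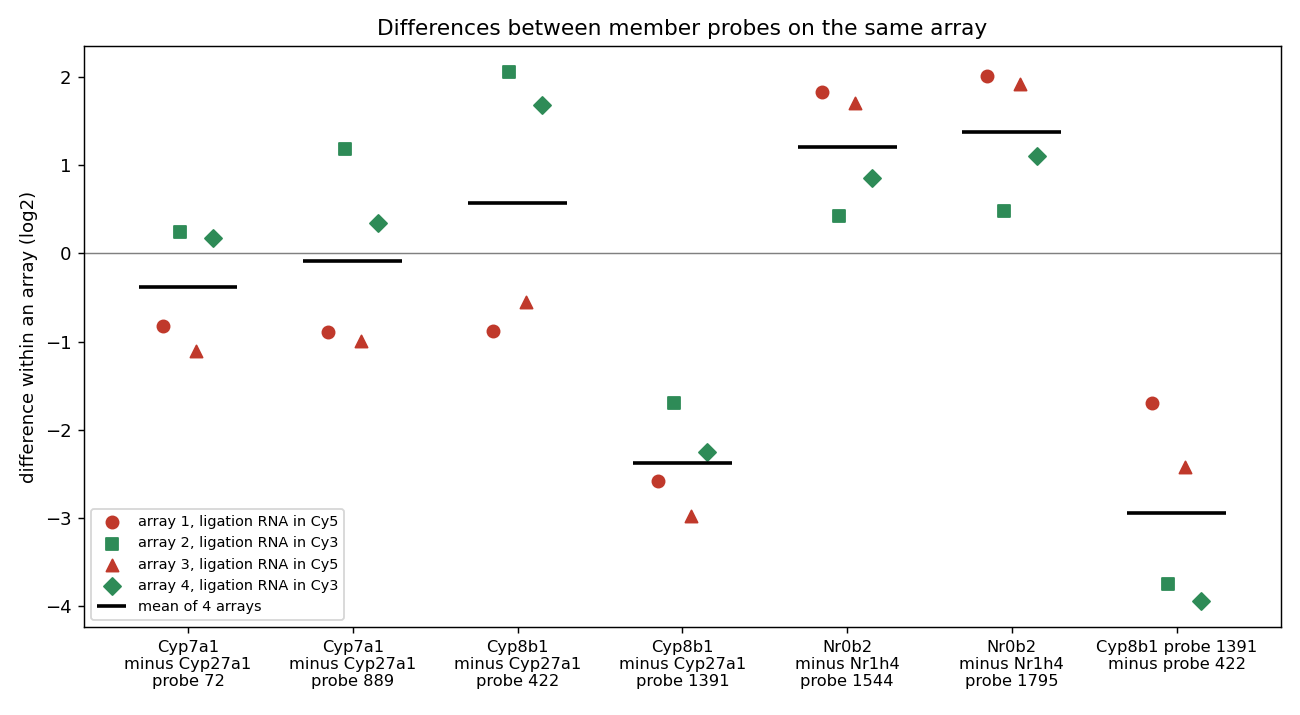
Differences between member probes on the same array (vertical axis, log2) for the 7 comparisons made, with 1 symbol per array (red with the ligation RNA in Cy5, green in Cy3) and a black bar at the mean of the 4 arrays. In the reading as ligation over sham, Cyp8b1 probe 1391 was below Cyp27a1 and Nr0b2 above Nr1h4 on every array, whereas the Cyp7a1 probes and Cyp8b1 probe 422 lay on either side of Cyp27a1 according to the dye.

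Nr1h4, the bile acid receptor FXR, was measured by probe 1358. Its deposited ratios were -1.54, -0.16, -1.63 and -0.75, and the centred ones -0.28, -0.58, -0.68 and -1.01. It was below 0 on all 4 arrays on both scales, least on array 2 as deposited and least on array 1 after centring. The ligation term was -0.64 ± 0.10 (SE, 4 arrays; limma adjusted p = 0.000143), 1.56-fold lower, and the dye term before centring was -0.57. On the zero point of the probes with the smallest dye term, array 2 lay above 0 at 0.26 and the others at -1.07, -1.17 and -0.29.

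Nr0b2, the repressor SHP, was higher on both probes, which have different clone accessions. The deposited ratios were 0.28, 0.26, 0.067 and 0.10 on probe 1544 and 0.47, 0.32, 0.28 and 0.35 on probe 1795. All 8 values were above 0 and did not split by dye. After centring they were 1.54, -0.16, 1.02 and -0.16 on probe 1544 and 1.73, -0.11, 1.24 and 0.091 on probe 1795, so that 3 of the 4 values on the Cy3 arrays fell just below 0. The ligation terms were 0.56 ± 0.09 (SE, 4 arrays; limma adjusted p = 0.000338) and 0.74 ± 0.09 (limma adjusted p = 2.96e-05), 1.48-fold and 1.67-fold higher. Without centring they were 0.18 (adjusted p = 0.0857, not called) and 0.36, so the size of the rise depends on the zero point. On the zero point of the probes with the smallest dye term, Nr0b2 was at 0.76, 0.68, 0.53 and 0.56 on probe 1544 and at 0.94, 0.73, 0.75 and 0.81 on probe 1795.

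The repressor lay above the receptor on every array, in the reading as ligation over sham. Nr0b2 probe 1544 exceeded Nr1h4 by 1.82, 0.42, 1.70 and 0.85 and probe 1795 by 2.01, 0.48, 1.92 and 1.10, with means of 1.20 ± 0.67 and 1.38 ± 0.73 (SD, n = 4). The differences were larger with the ligation RNA in Cy5 (1.76 and 1.96) than in Cy3 (0.64 and 0.79). The exact sign-flip permutation test gave its smallest possible p, 0.125, for both (0.219 adjusted over the 7 differences). Read as Cy5 over Cy3, the values of arrays 2 and 4 would turn sign and the means would be 0.56 and 0.59.

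Read as Cy5 over Cy3 and centred on the array medians, the table would give other directions for most members. Cyp27a1 would be higher (0.72 and 0.72), Cyp8b1 probe 1391 higher (0.32) and probe 422 lower (-0.57). Cyp7a1 would not be called (0.13 and -0.13), nor would Nr1h4 (0.16). Nr0b2 would be higher under both readings after centring (0.72 and 0.75). Without centring, the ligation term under this reading equals the dye term before centring. That is -0.0042 and 0.021 for Nr0b2 and -0.0067 and -0.0038 for Cyp27a1, all close to 0. For Cyp8b1 probe 1391 it is -0.41, for Cyp7a1 -0.59 and -0.86, and for Nr1h4 -0.57. The directions under this reading, also that of Nr0b2, thus depend on the zero point. Under that reading the near-equal deposited values of Cyp27a1 on all arrays would be dye differences of equal size.

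**Figure D4:**
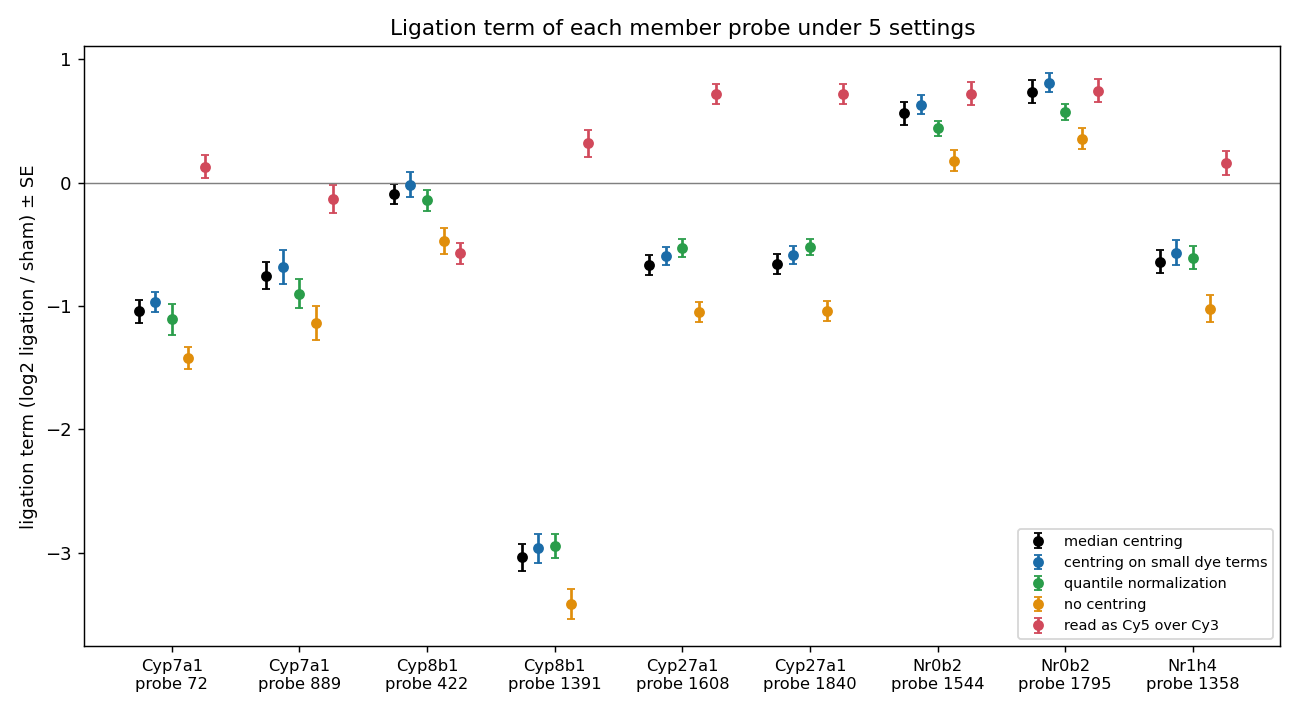
Ligation term of each member probe with its SE (vertical axis, log2) under median centring, centring on probes with small dye terms, quantile normalization, no centring, and the table read as Cy5 over Cy3. The first 4 settings keep each probe on its side of 0. The last, which is also median centred, moves Cyp27a1, Cyp8b1 probe 1391, Cyp7a1 probe 72 and Nr1h4 above 0.

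Other genes of the pathway were sparsely represented. Of 19 listed genes of bile acid synthesis, 3 were measured and all 3 are members (3 lower, median -0.90, against a median of -0.013 over the 958 named genes). Of 30 listed regulators 7 were measured, of which 3 were lower, 2 higher and 2 not called in the per-gene fit (median -0.11), in which 16.6% of all features were lower and 12% higher. Beside the members, the oxysterol receptor Nr1h2 (LXR-beta) was higher at 0.65 ± 0.07 (limma adjusted p = 2.37e-05). Rxra, the partner receptor of FXR, was lower at -0.50 ± 0.07 (limma adjusted p = 0.000196), with probes at -0.90 and -0.087. The cytokine Tnf, which can repress Cyp7a1, was lower at -0.57 ± 0.08. The stress kinase Mapk8 was at -0.11 and the cytokine Il1b at -0.036, neither called.

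Of 24 listed targets of FXR 5 were measured and 5 were higher (median 0.38), against 12% higher of all features in the per-gene fit. Beside Nr0b2 these were complement C3 (0.42 ± 0.08), Apoa1 (0.38 ± 0.08), the fibrinogen chain Fgg (0.33 ± 0.09) and the canalicular exporter Abcc2 (0.30 ± 0.08). Without centring those 4 lay between -0.086 and 0.037 and none was called, and Nr0b2 was at 0.27 (limma adjusted p = 0.0149). FXR is known to repress Apoa1 rather than to induce it, and Apoa1 is still counted among the 5. The probes of these 5 genes all lay in quartiles 3 and 4 of the dye term. There 18.4% and 19.4% of all tested probes were called higher, more than the share over all features. Of 18 listed genes of cholesterol supply 4 were measured. The mitochondrial cholesterol-binding protein Tspo was lower at -1.41 ± 0.08 and the P450 reductase Por at -0.24 ± 0.07 (probes between -0.36 and -0.041). The lipoprotein receptor Scarb1, which takes up cholesterol from HDL, was higher at 0.42 ± 0.07 and the mevalonate kinase Mvk at 0.33 ± 0.08, but without centring these were at 0.036 and -0.054 and not called.

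Markers of other liver cells were few. Of 10 listed cholangiocyte markers 2 were measured, Spp1 and Ggt1, at 0.14 and 0.016 and not called. Of 13 Kupffer cell and leukocyte markers 2 were measured and both were lower (Cd53 -0.27 and Ccl5 -0.33). Of 3 measured endothelial markers Kdr was lower at -0.33, and Icam1 (-0.17) and Tek (-0.036) were not called. Of 3 measured stellate cell markers Timp1 was higher at 0.35 (-0.034 and not called without centring). Col1a1 was lower at -0.23 (probes at -0.42 and -0.051, the latter not called), and Vim was at 0.064 and not called. Their part in the members' values was not tested.

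The genes nearest to each member were those with the smallest root mean square difference over the 4 centred arrays, with probes averaged per gene. For Cyp27a1 these were the receptor partner Ramp1 at 0.063, the sulfur transferase Tst at 0.082 and the secreted glycoprotein Azgp1 at 0.090. For Nr0b2 they were the nucleolar protein Npm1 at 0.11, Nr1h2 at 0.14 and the cadherin Cdh3 at 0.18. Nr1h4 was nearest to Naprt, an enzyme of NAD synthesis, at 0.17, Tpgs1 at 0.19 and the adrenergic receptor Adra1b at 0.19. The nearest gene to Cyp7a1 was Nr1h4 at 0.30, followed by the amine oxidase Maob at 0.32 and Adra1b at 0.35. For Cyp8b1 the distances are those of its gene average, which lies near neither of its probes. That average had no near gene, with Cyp7a1 at 0.68, the dicarboxylate carrier Slc13a3 at 0.76 and the organic anion carrier Slc22a8 at 0.81. These distances share the arrays' dye swing as well as the ligation effect.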

How the data were processed

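The authors hybridised cDNA of pooled ligation and sham liver RNA to 4 two-colour arrays, per the labels. The log2 ratios were used as deposited by the authors. The sources used here give no scanner, background correction or scaling and no base of the logarithm, which was read as 2. No intensity was used, so signal over background is unknown and the number of arrays limits precision. Probe names came from the platform's annotation: 1432 probes had 1 symbol, 19 several and 485 none. All 9 member probes matched RefSeq by gene number. The 288 spots at the 18 positions unnamed in each of 16 print blocks were left out of tests as likely controls.

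Each array was centred on its median and fitted with limma 3.58.1 in R 4.3.3 (ligation and dye terms, eBayes, Benjamini-Hochberg over 1648 probes, or 1174 features with probes averaged per gene). There were 2 residual degrees of freedom and 11.7 prior ones. The fit was tested on simulated data. Alternatives were no centring, other centring, quantile normalization, the other reading of the ratio, no dye term, a robust prior, other probe sets and leaving out each array. The members, lists and rules were chosen with earlier results of these data known. Limma fits with each array referenced to a member probe were planned for the differences between members. Their p-values are not used, because the error of the reference is shared by all rows while eBayes pools rows as independent. The exact permutation test, which has no dye term, is given instead. Named are every member, up to 3 called genes per list and direction, and the 3 nearest genes of each member. Fgg, Abcc2, the listed genes not called and the markers were named in addition, after their values were seen.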

Additional observations from a re-analysis of the deposited data

Results flagged for a closer look

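For Cyp7a1 probe 72, array 1 stood apart from the other arrays. Its centred value was -0.64 against -1.18, -1.18 and -1.16, a gap of 0.955 of the whole range, above the 95% critical value of Dixon's test for 4 samples. As deposited, the same probe split by dye instead, with -1.89 and -2.14 on the Cy5 arrays and -0.76 and -0.90 on the Cy3 arrays. Without array 1 its ligation term was -1.18. Chance flags about 1 in 20 such groups, and 1 of the 40 sets of values looked at was flagged.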

How the results depend on the processing

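The count of called member probes was 8 under every alternative for it except the Cy5 over Cy3 reading (6) and the fit without a dye term (1). The per-gene count of 5 fell to 2 under the Cy5 over Cy3 reading and to 0 without a dye term, where limma also called 1 of all probes tested against 459. No centring called 1361 of all probes and the Cy5 over Cy3 reading 1346. The latter reading, after median centring, turned the sign of Cyp27a1 (probes 0.718 and 0.721, gene 0.720) and Cyp7a1 probe 72 (0.131). It did so too for Cyp8b1 probe 1391 (0.319) and Nr1h4 (0.158, probe and gene). It also turned Cyp8b1 probe 422 minus Cyp27a1 (-1.29) and the difference between the probes of Cyp8b1 (0.892), and moved Cyp8b1 probe 1391 minus Cyp27a1 to -0.401 and Nr0b2 probe 1795 minus Nr1h4 to 0.587. Without centring the 8 called probes included Cyp8b1 probe 422 (-0.47) and not Nr0b2 probe 1544 (0.18). Cyp7a1 probe 889 minus Cyp27a1 ranged from -0.300 to 0.117 (without array 4) when each array was left out. Leaving out any 1 array kept the direction of every other difference. It also kept the call and direction of every member probe called on all 4 arrays, with Cyp8b1 probe 1391 between -3.20 and -2.87. Without array 2 or without array 4, limma gave every member probe the same SE of 0.124. The calls in those fits therefore rest on the size of the term and not on the spread of the probe. Each ratio already pairs the pools of its array, and with 1 group of arrays there was no replicate number to use as a block.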
